A study of Mus musculus with 4 samples.

Results

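The Ly6 gene cluster on mouse chromosome 15 was described here by its ATAC-seq peaks. ATAC-seq cuts and tags accessible chromatin with the Tn5 transposase, and a peak marks a stretch where sequenced fragments pile up above the local background. The members were all peaks in, or within 50 kb of, the genes Ly6a, Ly6c1, Ly6c2, Ly6e, Ly6i, Ly6d, Ly6k and Ly6h. These limits gave 3 windows of GRCm38 (mm10), which held 168 of 455071 peaks. The window around Ly6d and Ly6k was chr15:74712056-74849968, the window from Ly6e to Ly6c2 was chr15:74905025-75162066 and the window around Ly6h was chr15:75514745-75619470. Peaks of different libraries that overlapped by at least 1 bp were merged into sites, which left 59 sites of 172311, numbered along the chromosome from 1. Of these, 12 overlapped a protein-coding gene and 31 overlapped a gene of any kind.

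The cells were chondrocytes of C57BL/6 mice aged 0 to 4 days, taken from cartilage of the knee. P0 cells were primary chondrocytes held in culture for under 1 day, and P8 cells had been carried to passage 8 as a model of chondrocyte dedifferentiation, the loss of the cartilage phenotype in culture. Each passage had 2 libraries, whose peak names carry no replicate number, so they are called library A and library B. Nothing in the labels ties the libraries to separate animals or cultures, so their spread may be technical, and passage number and time in culture cannot be told apart.

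Ly6 genes encode small disulfide-rich proteins of the Ly6/uPAR family, most of them anchored to the cell surface by a glycolipid. Several are used as surface markers. Ly6a encodes stem cell antigen Sca-1, found on blood stem cells and on mesenchymal progenitors, and Ly6c1 and Ly6c2 encode the near-identical Ly6C antigens of monocytes and endothelium. Ly6e is a broadly expressed member known for its part in virus entry and placental cell fusion, and Ly6i is a myeloid relative of the Ly6C genes. Ly6d marks early B lineage cells and squamous epithelium, Ly6k acts in sperm, and Ly6h is a neuronal member that binds nicotinic receptors.

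The stretches of DNA just beyond the outer ends of the close paralogs Ly6c1 and Ly6c2 differed in the peaks called. They are given from RefSeq (GRCm38.p6, minus strand, 5′ to 3′, ending at the last base before the gene), and 2 of the 8 genes had such a sequence. The Ly6c1 stretch lies at chr15:75048921-75049087 and the Ly6c2 stretch at chr15:75112067-75112221. Capitals mark matches to the motifs searched, a TATA box (TATAAA) 60 bases and a CCAAT box (CCAAT) 12 bases before Ly6c1, and a RUNX motif (TGTGGT, here as its reverse complement) 84 bases before Ly6c2.
Ly6c1: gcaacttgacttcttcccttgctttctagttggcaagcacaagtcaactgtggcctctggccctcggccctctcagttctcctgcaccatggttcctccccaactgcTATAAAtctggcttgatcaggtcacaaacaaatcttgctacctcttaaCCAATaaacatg
Ly6c2: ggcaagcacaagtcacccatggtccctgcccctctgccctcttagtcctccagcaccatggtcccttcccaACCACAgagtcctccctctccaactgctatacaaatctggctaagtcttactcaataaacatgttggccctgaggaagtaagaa

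A peak overlapped the Ly6c1 stretch in each of the P0 libraries but in neither P8 library, a pattern found at 17.0% of all sites. No peak overlapped the Ly6c2 stretch in any library, and the part of read mapping between close copies in this was not tested. The stretches were identical at 73.9% of 134 aligned bases. Both strands were searched for these motifs and for AP-1 (TGANTCA), the interferon gamma activated site (TTCNNNGAA) and the core of the interferon-stimulated element (GAAA, any 2 bases, GAAA), and none of the last 3 occurred in either stretch. Among 32817 RefSeq promoters of 300 bases (250 before to 50 after a start), 13.6% held the TATA box, 37.4% the CCAAT box, 16.8% the RUNX motif, 7.81% the AP-1 motif, 8.29% the interferon gamma activated site and 3.43% the interferon-stimulated core. The shorter stretches printed here had fewer positions to match. A match is a description of letters and not a measured binding site.

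Fewer peaks were found over the cluster at P8. The windows held 51 peaks in library A and 42 in library B of P0, against 35 and 40 in libraries A and B of P8. Both P8 libraries were below both P0 libraries. The mean was 46.5 ± 6.36 at P0 and 37.5 ± 3.54 at P8 (SD, n = 2 each), a ratio of 1.24 ± 0.206 with an exact two-sided permutation p of 0.333, which is the smallest p that 2 against 2 libraries allow. The peaks covered 14793, 12640, 9170 and 10070 bp in the same order, a ratio of 1.43 ± 0.184. Over the whole genome the ratio of peak numbers was 1.40 ± 0.22. The cluster's share of all peaks was 0.035% in each P0 library and 0.0391 and 0.0401% at P8.

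Depth moved with passage. The genome-wide background of the peak caller, a measure of depth, was 194 and 162 tags per 10 kb in the P0 libraries and 140 and 134 in the P8 libraries. When peaks were kept only where they would pass at the lowest of these backgrounds, 98.4% of all peaks remained. The ratio of peak numbers in the cluster was then 1.24 and that of covered length 1.43. With so few peaks removed these ratios could move little, and peaks were not called again at a lower depth. This step acts on the height of a peak and not on its width. Peaks at gene ends were also fewer at P8, over all protein-coding genes (67.8 and 66.0% with a peak at an end at P0, 59.9 and 61.4% at P8) as over the marker lists. Of 10 chondrocyte markers, 10 and 10 carried a peak at most 1 kb from an end at P0, and 9 and 8 did so at P8. Of 6 fibroblast markers the numbers were 6, 6, 5 and 4. Of 8 blood and macrophage markers they were 3, 3, 2 and 2, with Ptprc, Csf1r, Adgre1, Itgam and Cd3e at 0 in every library, and of 5 endothelial markers 3, 3, 2 and 2, with Pecam1 and Cdh5 at 0. The part of cell composition in the results on the cluster was not tested.

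**Figure D1:**
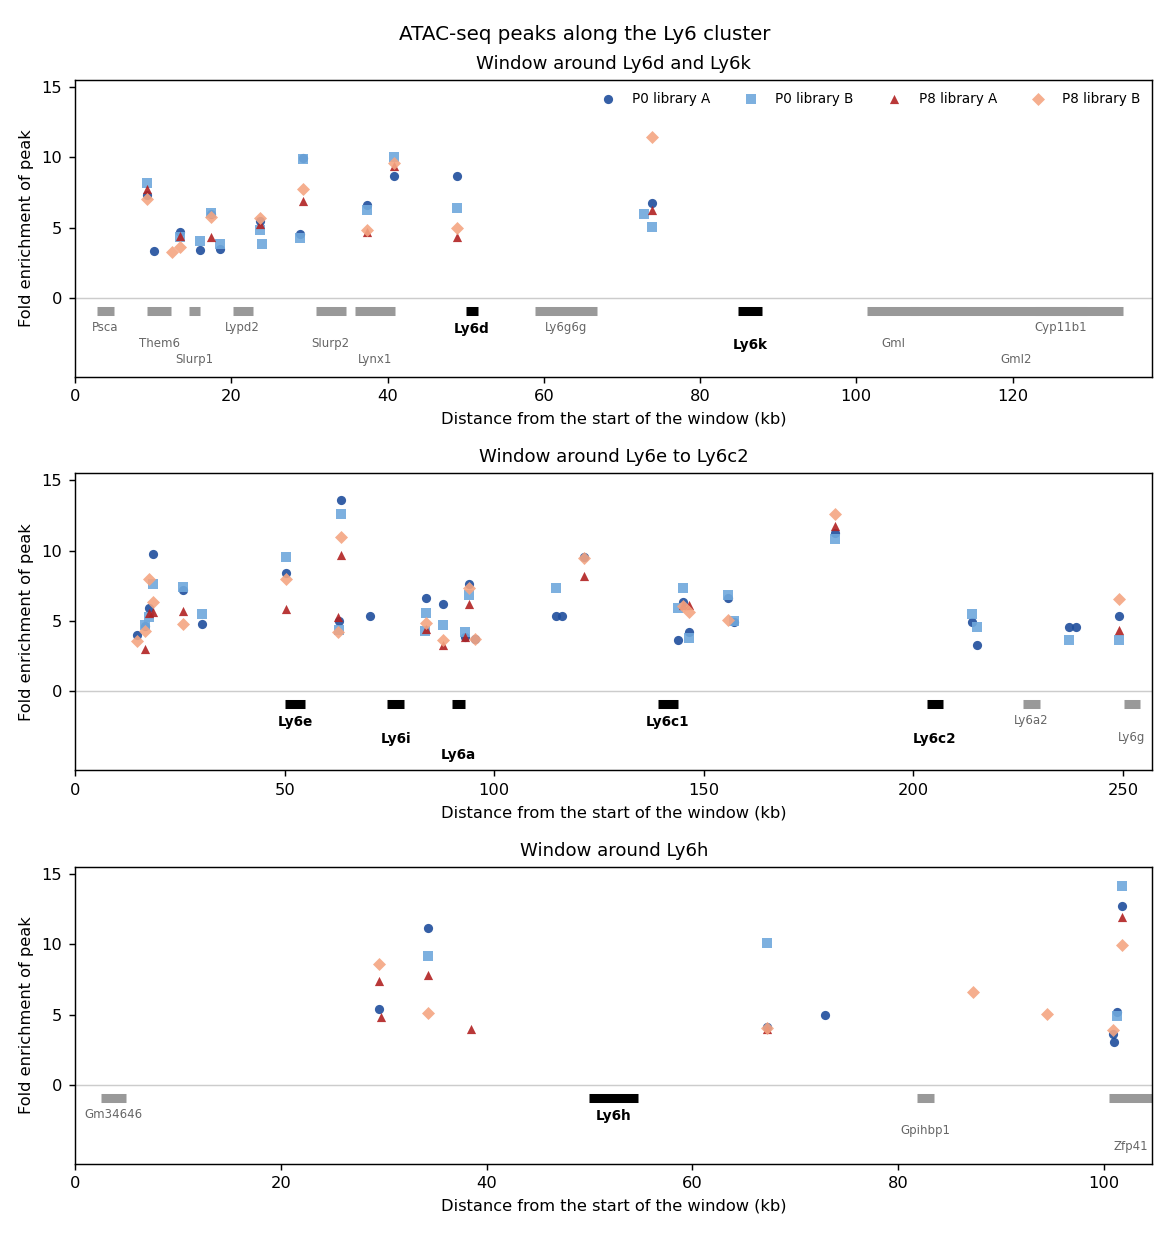
Fold enrichment of every peak (y axis) against its distance from the start of each of the 3 windows (x axis, kb), one point per peak and library, with the 8 genes as black bars and other protein-coding genes as grey bars. The longest stretch with no peak holds Ly6k, and the highest peaks lie between Ly6e and Ly6i, between Ly6c1 and Ly6c2 and inside Zfp41.

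The density of sites was similar in the 3 windows, with long stretches free of peaks inside them. The window from Ly6e to Ly6c2 held 31 sites, that around Ly6d and Ly6k 16 and that around Ly6h 12, or 12.1, 11.6 and 11.5 sites per 100 kb. In the first of these, peak numbers were 30, 24, 20 and 23, in the order used above. They were 13, 14, 9 and 10 around Ly6d and Ly6k and 8, 4, 6 and 7 around Ly6h. The passages overlapped around Ly6h and not in the other windows. Over the whole genome they did not overlap either, at 145703, 119974, 89610 and 99784 peaks. The ratio of P0 to P8 means was 1.42 around Ly6d and Ly6k, against 1.40 over the genome. The longest interval without a peak spanned 63.9 kb at chr15:74786091-74849968 up to the window's limit and contained Ly6k, the Ly6/uPAR relatives Gml and Gml2, and Cyp11b1, an enzyme of steroid synthesis. An interval of 31.8 kb around Ly6c2 also held no peak. Intervals elsewhere in the genome were not measured. All sites within 50 kb numbered 5 for Ly6k, 8 for Ly6c2, 12 for Ly6c1 and for Ly6h, 14 for Ly6a, 16 for Ly6d and for Ly6i and 17 for Ly6e, against a median of 13 over protein-coding genes. Neighbouring genes share sites in these numbers.

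The genes differed in whether a peak lay at an end. The RefSeq table gives no strand, so both ends of a gene were used, with a limit of 1 kb. Ly6e, Ly6a and Ly6c1 had a peak at an end in all 4 libraries, which is 3 of 8 genes (37.5%, against 58.1% of 21896 protein-coding genes). Ly6d had one in P0 library A only, and within 3 kb in all 4 libraries. Ly6k, Ly6i, Ly6c2 and Ly6h had none in any library, which is 4 of 8 genes (50.0%, against 31.0%). The nearest site lay 10784 bp from an end of Ly6k, 4095 bp from Ly6i, 6791 bp from Ly6c2 and 11510 bp from Ly6h. In P0 libraries A and B, 4 and 3 of the 8 genes had a peak at an end (against 67.8 and 66.0% of all), and in the P8 libraries 3 and 3 (against 59.9 and 61.4%), so the passages overlapped.

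Most other genes of the family on chromosome 15 had no peak within 1 kb of an end. Of 14, Lypd2 and Lynx1, the latter a regulator of nicotinic receptors, had one in every library, Slurp1 had one in both P0 libraries only and 11 had none (78.6%, against 31.0% of all protein-coding genes). Of 12 family genes on other chromosomes, 6 had one in every library (50.0%, against 58.1%). These were Cd59a and Cd59b, which block complement, Plaur, the urokinase receptor, and Lypd1, Lypd6 and Ly6g6e. Lypd3 and Lypd6b had one in the P0 libraries only and 4 had none. Of the genes with none, Slurp2, Ly6g and Ly6f on chromosome 15 had a peak within 3 kb in 4 libraries and Ly6m in 2. On other chromosomes Ly6g6c and Ly6g5b had one within 3 kb in 4 libraries, Ly6g5c in 2 and Ly6g6d in 1. No share of all protein-coding genes is given for 3 kb.

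Close copies limit what an absent peak shows. The promoter windows of Ly6c2 and of its neighbour Ly6a2 were identical at 98.3% of 295 aligned bases, with an unbroken identical run of 142 bases. Neither was overlapped by a peak in any library. Reads were 50 bases long, the treatment of reads that map to several places is not given in the sources used here, and its part in the empty Ly6c2 and Ly6a2 windows was not tested.

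Ly6e had a single site at its end, site 23 (chr15:74954876-74955924), which reached into the gene. Fold enrichment, the pileup at the summit over the local background with 1 added to each, reached 8.40 and 9.57 at P0 but 5.86 and 7.99 at P8, library A before library B here and throughout. Both P8 values were below both P0 values. The log2 difference, P8 minus P0, was -0.39 with a standard error of 0.20 and an adjusted p of 0.207 (limma over 55890 sites with a peak in every library). Site 26 (chr15:74968062-74968755), 8158 bp beyond the other end of Ly6e on the side of Ly6i, was among the 3 sites of highest mean fold enrichment in the cluster. It measured 13.6 and 12.6 at P0 and 9.69 and 10.9 at P8, without overlap, with a log2 difference of -0.35 (standard error 0.14, limma adjusted p 0.119).

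Ly6a, the Sca-1 gene, had sites at or near both of its ends. Site 31 (chr15:74997776-74998083) overlapped an end of the gene at 3.85 and 4.19 in the P0 libraries and 3.89 in P8 library A, with no peak in P8 library B. Site 32 (chr15:74998898-74999307), 867 bp beyond the same end, measured 7.65 and 6.83 at P0 and 6.19 and 7.33 at P8. The passages overlapped at site 32, and the log2 difference was -0.10 (standard error 0.19, limma adjusted p 0.745). Site 30 (chr15:74992785-74992997), 1880 bp beyond the opposite end and named after its values were seen, measured 6.21 and 4.71 at P0 and 3.33 and 3.64 at P8. It was the 1 shared site of the cluster that passed the test, with a log2 difference of -0.64 (standard error 0.19, limma adjusted p 0.0472). The adjusted p was 0.215 without P0 library A, 0.161 without P8 library A and 0.0509 without P8 library B, and it was 0.237 with library medians subtracted and 0.425 on the pileup over the genome-wide background.

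Ly6c1 combined a site with peaks at P0 only and, further out, a site with higher values at P8. Site 37 (chr15:75048711-75048989) overlapped the outer end of the gene, with a fold enrichment of 3.67 and 5.94 at P0 and no peak at P8. Site 38 (chr15:75049802-75050198), 882 bp upstream, measured 6.35 and 7.37 at P0 and 6.12 and 6.10 at P8, a log2 difference of -0.16 (standard error 0.19, limma adjusted p 0.589). Site 39 (chr15:75051168-75051691), 2248 bp upstream and named after its values were seen, measured 4.20 and 3.81 at P0 and 6.13 and 5.67 at P8. Both P8 libraries were above both P0 libraries there. The log2 difference of 0.56 (standard error 0.18) did not pass the test, with a limma adjusted p of 0.063. After the median of each library over all shared sites was subtracted it was 0.83, with a limma adjusted p of 0.0142. On the pileup over the genome-wide background it was 0.95, with a limma adjusted p of 0.00281. Leaving out each library in turn gave log2 differences of 0.49 to 0.63. Without P0 library A, the stretch chr15:75051178-75051328 split off as a site with peaks in the P8 libraries alone. The site therefore joins separate peaks, and the values compared need not come from the same position. Peaks covered 73 bp of the site in P0 library B, against 501 bp in P0 library A and 451 and 379 bp at P8. The −log10 q in P0 library B was 3.65, so the site was not shared at a −log10 q of at least 5.

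Between Ly6c1 and Ly6c2 lay site 42 (chr15:75085480-75087046), which at 1567 bp was wider than any other site of the cluster. It measured 11.2 and 10.8 at P0 and 11.8 and 12.6 at P8 in fold enrichment. Both P8 values were above both P0 values, by a log2 difference of 0.15 (standard error 0.14, limma adjusted p 0.483). The pileup, which is not scaled for depth, stood at 87 and 83 tags at P0 and at 77 and 78 at P8. Divided by the genome-wide background of its library it reached 61.4 and 70.0 at P0 but 75.3 and 79.7 at P8, a log2 difference of 0.24 (limma adjusted p 0.194), in the same direction as fold enrichment. Site 42 lay 21115 bp from Ly6c2, which had no closer shared site. Site 36 (chr15:75026120-75026596), between Ly6a and Ly6c1 and named after its values were seen, measured 8.22 and 9.51 at P8, while at P0 it had 9.52 in library A and no peak in library B.

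**Figure D2:**
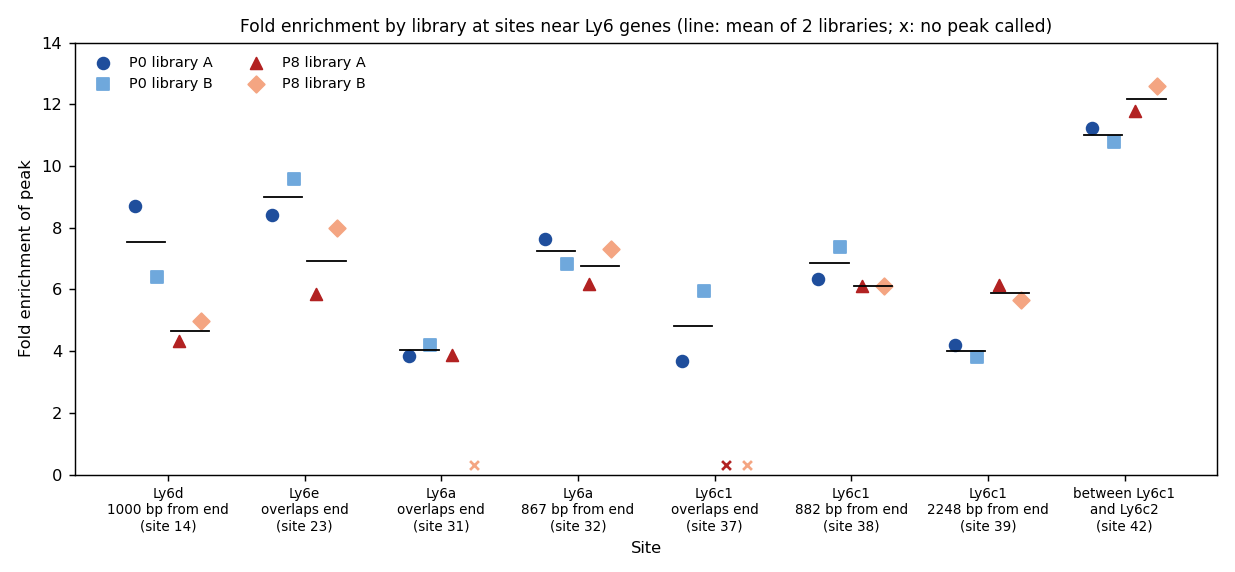
Fold enrichment of the peak (y axis) in each of the 4 libraries at 8 sites near Ly6 genes (x axis). A line marks the mean where both libraries of a passage had a peak, and a cross marks a library where no peak was called. The P0 values lie above the P8 values at sites 14, 23 and 38, below them at sites 39 and 42 and among them at site 32.

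Ly6d had site 14 (chr15:74760749-74761056), whose edge reached to 1000 bp from the gene. It measured 8.69 and 6.41 at P0 and 4.33 and 4.98 at P8. Both P8 values were lower, with a log2 difference of -0.68 (standard error 0.21, limma adjusted p 0.0572). Site 16 (chr15:74785742-74786090), the site closest to Ly6k and named after its values were seen, measured 6.77 and 5.03 at P0 and 6.25 and 11.5 at P8. The passages overlapped, and the log2 difference of 0.53 (standard error 0.28, limma adjusted p 0.205) was 0.10 without P8 library B. Around Ly6h, site 50, 15503 bp from the gene and likewise named after its values were seen, measured 11.2 and 9.15 at P0 and 7.78 and 5.14 at P8, a log2 difference of -0.68 (standard error 0.22, limma adjusted p 0.0662). Site 59 in Zfp41, a zinc finger gene at the window's edge, had the highest mean in the cluster, with 12.7 and 14.1 at P0 and 11.9 and 9.94 at P8.

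Across libraries, peaks were shared or lost at P8 more often than gained. A peak in every library was found at 25 of 59 sites (42.4%, against 32.4% of all 172311 sites). Both P0 libraries had a peak where neither P8 library had one at 12 sites (20.3%, against 17.0%), and the opposite pattern was found at 1 site (1.69%, against 1.84%). A peak in 1 library was found at 14 sites (23.7%, against 33.1%). The shares with peaks at 1 passage were near those of all sites. Counting a single library as enough, 21 sites had peaks at P0 only (35.6%, against 40.2%) and 6 at P8 only (10.2%, against 11.7%).

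The 12 sites with peaks in both P0 libraries alone had lower medians than the shared sites. Their fold enrichment ranged from 3.31 to 5.38 in P0 library A (median 4.67) and from 3.66 to 7.32 in P0 library B (median 4.73). The medians over the 25 shared sites were 6.77 and 6.83. Choosing sites that lack a peak in other libraries favours low values, so this difference was partly fixed in advance. Values of such sites over the genome were not computed. Site 5 at the end of Slurp1 and sites 7 and 10 near Lypd2 and Slurp2 lay in the window of Ly6d. Site 22 lay 19595 bp before Ly6e, sites 25, 34, 37, 41, 43, 44 and 45 lay between Ly6e and Ly6g, and site 58 lay in Zfp41. Site 34 (chr15:75019692-75019815), between Ly6a and Ly6c1, had 5.38 and 7.32. The 1 site with peaks in both P8 libraries alone, site 24 (chr15:74967765-74967849), had 5.27 and 4.24, and it lay directly beside site 25 (chr15:74967898-74968033), which had peaks at P0 alone with 5.01 and 4.34, and beside the shared site 26.

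**Figure D3:**
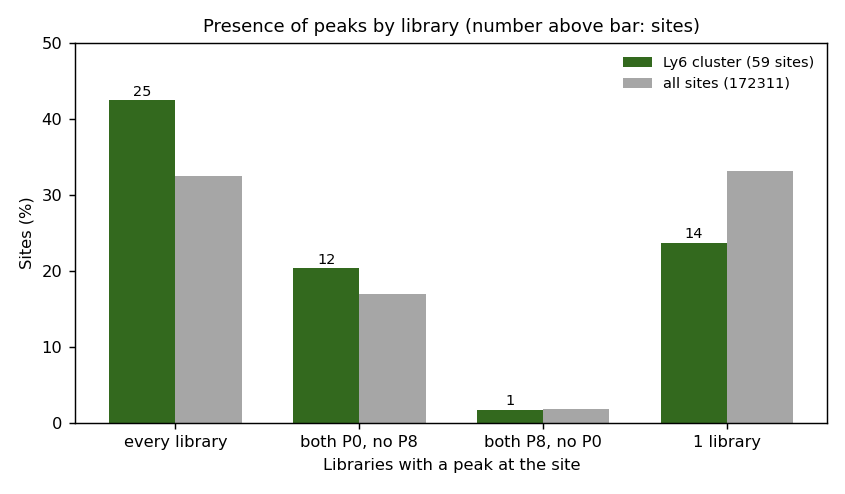
Percentage of sites (y axis) with peaks in every library, in both P0 libraries alone, in both P8 libraries alone or in 1 library (x axis), for the 59 sites of the cluster and for all 172311 sites. The cluster has 25, 12, 1 and 14 sites in these classes, and the remaining patterns are not drawn.

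At the 25 shared sites, fold enrichment was mostly lower at P8, as it was over the genome. The mean was lower at P8 at 18 sites (72.0%, against 73.4% of 55890), both P8 libraries were below both P0 libraries at 15 (60.0%, against 49.9%) and above them at 2 (8.0%, against 11.6%). The library medians of log2 fold enrichment were 2.76 and 2.77 at P0 and 2.52 and 2.61 at P8, a difference of -0.20 ± 0.066 (SD, n = 2 each, exact permutation p 0.333). By limma with Benjamini-Hochberg adjustment, 1 site of 25 was higher at P0 (4.0%, against 11.8% of all) and 0 were higher at P8 (0.0%, against 1.08%). At an unadjusted p under 0.05 limma gave 8 sites higher at P0 (32.0%, against 27.9%) and 1 higher at P8 (4.0%, against 4.16%). In simulated data, log2 differences of 0.5 mostly missed the adjusted threshold, though fewer sites were changed there than were called in the data. The sites that were not called are not shown to be unchanged.

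The direction depended on the scale. Over all shared sites the library medians were lower at P8 by a log2 value of -0.271. Once each library's median was subtracted, 13 sites of the cluster were lower at P8 (52.0%, against 41.7%) and 12 were higher. On this scale 2 sites were called higher at P8, sites 16 and 39 (8.0%, against 6.2%), and 0 higher at P0 (0.0%, against 3.74%), and at an unadjusted p under 0.05 limma gave 5 higher at P8 (20.0%, against 16.6%) and 0 higher at P0 (0.0%, against 9.74%). On the pileup over the genome-wide background of its library, the mean was lower at P8 at 16 sites (64.0%, against 70.5%). On that scale limma called sites 16 and 39 higher at P8 (8.0%, against 4.79%) and sites 21 and 59 higher at P0 (8.0%, against 21.2%), and at an unadjusted p under 0.05 it gave 2 sites (against 7.97%) and 6 sites (against 31.5%). Over the genome, fold enrichment gave 601 calls higher at P8, against 6571 higher at P0 (8.38% of calls). With library medians subtracted there were 3467, against 2090 (62.4% of calls). On the pileup over background there were 2677, against 11831 (18.5% of calls).

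**Figure D4:**
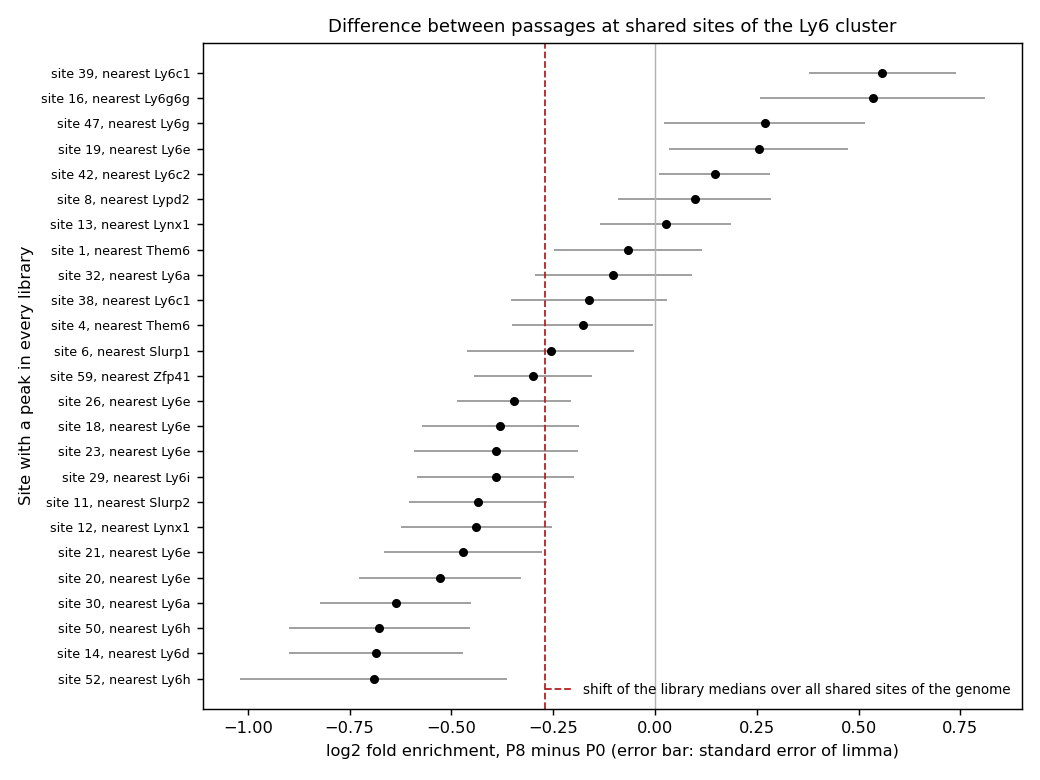
Log2 difference in fold enrichment, P8 minus P0 (x axis, points with the limma standard error), at the 25 sites of the cluster with a peak in every library (y axis, ordered by value). The values run from -0.69 to 0.56, and the dashed line marks the shift of the library medians over all shared sites, -0.271.

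The genes elsewhere with gene-end profiles nearest to those of the Ly6 genes are given as a description. Among 12796 genes with a peak of every library at their strongest end site, the nearest to Ly6e over the 4 libraries were Zfp395, Ak5 and Ikzf2, at a Euclidean distance in log2 fold enrichment of 0.0693 to 0.0943. For Ly6a they were Agbl2, Arfgap1 and 1700016K19Rik (0.0746 to 0.084), for Ly6c1 Fat3, H2bc9 and H3c7 (0.0406 to 0.0483) and for Ly6d Fads6, Slc15a4 and Glt1d1 (0.121 to 0.126). H2bc9 and H3c7 had the same values in every library, as did Slc15a4 and Glt1d1. With so many genes compared on 4 values, small distances were likely in advance, and no typical nearest distance was computed.

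The sites nearest to the limits of 50 kb, inside and outside, are given as a description and were chosen by position. At the lower limit of the window of Ly6d, site 1 lay 8.9 kb inside and measured 7.31 and 8.16 at P0 and 7.71 and 7.05 at P8. The nearest site outside it, 2.3 kb away, measured 10.3 and 10.3 at P0 and 7.84 and 7.80 at P8. At the upper limit, beyond Ly6k, the last site inside was site 16, and the nearest outside, 23.8 kb away, had peaks in the P8 libraries alone, of 6.92 and 5.56. That is the pattern of site 24 inside the cluster.

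At the lower limit of the window from Ly6e to Ly6c2, site 17 had 4.04 in P0 library A and 3.56 in P8 library B, and the nearest site outside had 4.14 in P0 library A only. At its upper limit, site 47 near Ly6g, the neutrophil antigen gene, measured 5.38 and 3.66 at P0 and 4.36 and 6.57 at P8, and the nearest site outside had a peak of 3.96 in P8 library A only. At the lower limit of the window of Ly6h, site 48 had 5.38 in P0 library A and 7.37 and 8.56 at P8, and the nearest site outside measured 5.80 and 7.32 at P0 and 6.92 and 6.57 at P8. Beyond site 59 at the upper limit, the nearest site outside measured 10.6 and 10.5 at P0 and 7.66 and 9.47 at P8. Sites on both sides of the limits ranged from peaks in a single library to peaks in every library.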

How the data were processed

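ATAC-seq libraries of P0 and P8 mouse chondrocytes (2 each) were sequenced as 50 bp paired-end reads. The authors aligned them with Bowtie2 to mm10 and ran MACS2 on every library for peaks (versions not given in the sources used here). The deposited lists give for each peak a signal, the summit pileup in tags without scaling for depth, its fold enrichment over local background and the −log10 p-value and −log10 q-value. A deposited DiffBind table holds the authors' log2 fold changes and FDR and was not used. The genes and lists were chosen with earlier results of these data known. Read totals were not used here, so depth was taken from the lowest background of each library.

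Libraries were told apart by peak names, and 0 columns with values per library were left unused. Peaks overlapping by 1 bp were merged. Where a library had several peaks in a site the highest was used. Sites lacking a peak in a library have no value there and entered no test. log2 fold enrichment at 55890 shared sites was compared with limma 3.58.1 (trend, no covariate) in R 4.3.3, with Benjamini-Hochberg adjustment and a threshold of 0.05. Library values were compared by exact two-sided permutation tests in scipy 1.17.1, and promoters were aligned with biopython 1.88. Python 3.11.15, numpy 2.4.6, pandas 2.3.3 and matplotlib 3.10.9 were used. Alternatives were a matched background, a −log10 q of at least 5, windows of 10 kb, reciprocal overlap of 50%, pileup over background, centring by library medians, an end limit of 3 kb and leaving out each library. The sites named were all within 1 kb of an end of the 8 genes, all with peaks in both libraries of 1 passage alone and the 3 of highest mean fold enrichment. The sites nearest to the limits of the windows were chosen by position, and any others (sites 16, 21, 30, 36, 39, 48 and 50) were named after their values were seen.

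Merging and gene-end matching were tested on simulated intervals against direct comparison of all pairs. The limma step was tested on simulated data under 2 noise settings, the second added after the first gave few calls. Under both, nearly all changes were given the right sign. A log2 change of 2.0 was called at 98.0 and 100% of changed sites, 1.0 at 16.0 and 88.0% and 0.5 at 0.0 and 9.0%. Only 100 sites of each size were changed among 55890, against 6571 and 601 sites called in the data. With so few changed sites the adjusted threshold is stricter than in the data, so these shares do not give the power in the cluster.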

Additional observations from a re-analysis of the deposited data

How the results depend on the processing

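Of 75 alternative values for the main results, 56 stayed within 1 SD of the libraries or, for counts, within 1.5 times the reported count, 18 moved further and 1 reversed. No cause of a move was tested except where the setting leaves fewer peaks, sites or libraries. With peaks of a −log10 q of at least 5, the ratio of peak numbers was 1.51 and 13 sites had a peak in every library. At that threshold 0 sites had peaks in both P8 libraries alone. There, 0 shared sites of the cluster were called higher at P0, against 5070 of 40325 over the genome. With windows of 10 kb, 9 sites had a peak in every library and 4 had peaks in both P0 libraries alone. With reciprocal overlap of 50%, 18 sites had a peak in every library and 7 sites had peaks in both P8 libraries alone. Under that overlap 0 sites of the cluster were called higher at P0, against 3116 of 41607 shared sites over the genome. The genome-wide shares of sites by libraries with a peak were not computed for these settings. With pileup over background 2 sites were called higher at P8, sites 16 and 39, and 2 higher at P0, sites 21 and 59. With library medians subtracted 2 were called higher at P8 and 0 higher at P0, and the difference of library medians in the cluster reversed from -0.20 to 0.069 on the log2 scale. The median of the log2 differences of the 25 shared sites went from -0.30 to -0.028 and kept its sign. The log2 difference at site 32 near Ly6a reversed to 0.38 with pileup over background, to 0.17 with medians subtracted and to 0.019 without P8 library A (it was -0.22 without P8 library B), and that at site 38 near Ly6c1 reversed to 0.21 with pileup over background and to 0.11 with medians subtracted.

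Leaving out each library in turn gave a ratio of peak numbers of 1.12 to 1.36 and of covered length of 1.31 to 1.54. It gave 25 to 27 sites with a peak in every library, 13 to 18 with peaks at P0 alone and 1 to 5 with peaks at P8 alone. The last count was 4 without P0 library A (sites 24, 36, 39 and 48), 5 without P8 library A and 3 without P8 library B. The genome-wide shares of these presence classes were not computed for these runs. Sites called by limma are not counted where a passage has 1 library. The difference of library medians ran from -0.23 to -0.15, and the difference in genes with a peak at an end from -1 to 0 (0 without P0 library A, and also with the limit of 3 kb). The log2 difference at site 14 near Ly6d ran from -0.465 without P0 library A to -0.905 without P0 library B. That at site 23 at Ly6e ran from -0.166 without P8 library A to -0.613 without P8 library B. At site 16 it ran from 0.0977 without P8 library B to 0.972 without P8 library A. The lone library left in a passage was assumed by limma to vary like the other passage.

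No paired analysis was possible because the peak names carry no replicate number. With 2 libraries per passage no permutation test can pass 0.05, and the weakest peaks of the cluster had 7 tags at the summit.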
